A study of Mus musculus with 8 samples.

Results

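The histone lysine modifying enzymes are the proteins that put acetyl and methyl groups on the lysines of histone tails or take them off. They were collected by symbol: every gene of the Hdac, Sirt, Kat, Kmt, Kdm and Setd names, with Ezh1, Ezh2, Ehmt1, Ehmt2 and Suv39h2, that had a probe set with exactly 1 gene symbol. Membership was read from symbols only, but the rule was set with earlier results of these data known. It found 67 of the 18193 genes on the table, read by 162 of 45101 probe sets. A gene with several probe sets was read by the brightest, and 24 members had only 1. Of the 67 members, 64 passed the filter on low signals and were tested. The other 3 were Kdm4d, Kdm5d and Sirt5, whose signals ran from 2.54 to 95.95 over all arrays and are not described further. Suv39h1 was not analysed here.

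The cells were NS5, mouse neural stem cells that the labels trace to E11.5 brain. The 4 groups of 2 arrays were Ethanol and TGF-beta1, Ethanol and FGF2, TGF-beta1 alone, and FGF2 alone. Ethanol was given at 400 mg/dl and each growth factor at a labelled 10 ng per ul for 48 h, after 24 h of plating with FGF2 and EGF and 4 h without growth factors, which all groups shared. FGF2 keeps neural stem cells dividing, and TGF-beta1 is a cytokine that signals through Smad proteins. The labels do not say whether the arrays of a group came from separate cultures, so p-values measure the spread between these arrays, which may be technical. Fewer cells with a transcript and less of it per cell cannot be told apart in bulk RNA.

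In the textbook scheme, acetylation of histone lysines by the Kat enzymes goes with open, transcribed chromatin, and the Hdac and Sirt enzymes remove it. Methylation depends on the residue: H3K4 and H3K36 methylation mark active genes, whereas H3K9 and H3K27 methylation mark silent ones. In neural stem cells the balance of these enzymes is known to bear on whether cells keep dividing or become neurons or glia, with Ezh2 and Hdac1 among the members tied to dividing progenitors.

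All 8 neural stem and radial glia markers on the table were above the filter, with summed signals of 77065 to 100717 on ethanol arrays and 59894 to 114870 on arrays without ethanol. Of the other cell types, 6 of 6 astrocyte, 8 of 10 neuron, 1 of 5 oligodendrocyte, 1 of 6 microglia and 2 of 6 endothelial and mesenchymal markers were above it. The summed astrocyte signals were 33324 to 38394 on ethanol arrays and 20911 to 37528 on the others. Gfap, the astrocyte filament protein, had a signal of 668 and 8284 in Ethanol and TGF-beta1 compared with 2102 and 2461 in TGF-beta1, and of 6058 and 1281 in Ethanol and FGF2 against 534 and 61.9 in FGF2, and did not pass with ethanol (average adjusted p = 0.478, limma). All arrays had been scaled to a trimmed mean of 500 and their median signals lay between 50.6 and 86.5. The ratio of the 3' to the 5' Gapdh control, a measure of RNA quality, was 1.93 and 2.06 in Ethanol and TGF-beta1 compared with 1.70 and 2.20 in TGF-beta1, and 3.33 and 3.48 in Ethanol and FGF2 against 1.64 and 2.20 in FGF2. The same ratio for Actb was 2.78 and 3.07 in Ethanol and TGF-beta1 compared with 2.36 and 3.03 in TGF-beta1. It was 3.57 and 4.20 in Ethanol and FGF2 against 2.35 and 3.61 in FGF2, with overlap. Fn1, a TGF-beta target, went against the labels on both ethanol arrays numbered 1: its signal was 124 and 8226 in Ethanol and TGF-beta1, 6828 and 116 in Ethanol and FGF2, 3015 and 4109 in TGF-beta1, and 120 and 139 in FGF2. These arrays were kept as labelled. Without both of them 0 members and 0 genes passed in the ethanol average, and values without them are given beside the ethanol averages described most closely.

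With ethanol, averaged over both growth factors, 1 of the 64 members passed the threshold: Suv39h2, which fell. Ezh2, Hdac1 and Kdm2a had lower values on every ethanol array, and Kdm3a, Kdm7a and Ehmt1 higher ones, but none of these passed. With Suv39h2, the members lower on every ethanol array were 6.25% of those tested, against 4.45% of genes. The members higher on every ethanol array were 4.69%, against 2.98% of genes. The threshold test was limma on log2(signal + 23.66) with Benjamini-Hochberg adjustment over 10916 genes at 0.05. The members' share past the threshold, 1.56%, stood beside 1.99% of all genes tested, and 1.8% of genes fell, so the count is near the background. No member rose, where 0.183% of genes did. The median log2 fold change was 0.10 over the members and 0.03 over all genes, and 60 members, 93.8%, lay within 0.5 of 0, against 85.0% of genes. Without adjustment, 7 members had p under 0.05, against 10.8% of genes. These were Suv39h2, Ezh2 and Hdac1 on the lower side and Kdm3a, Kdm7a, Hdac5 and Kmt2c on the higher. Without both ethanol arrays numbered 1 these 7 kept their direction, with adjusted p from 0.204 for Suv39h2 to 0.726 for Kmt2c (limma).

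**Figure D1:**
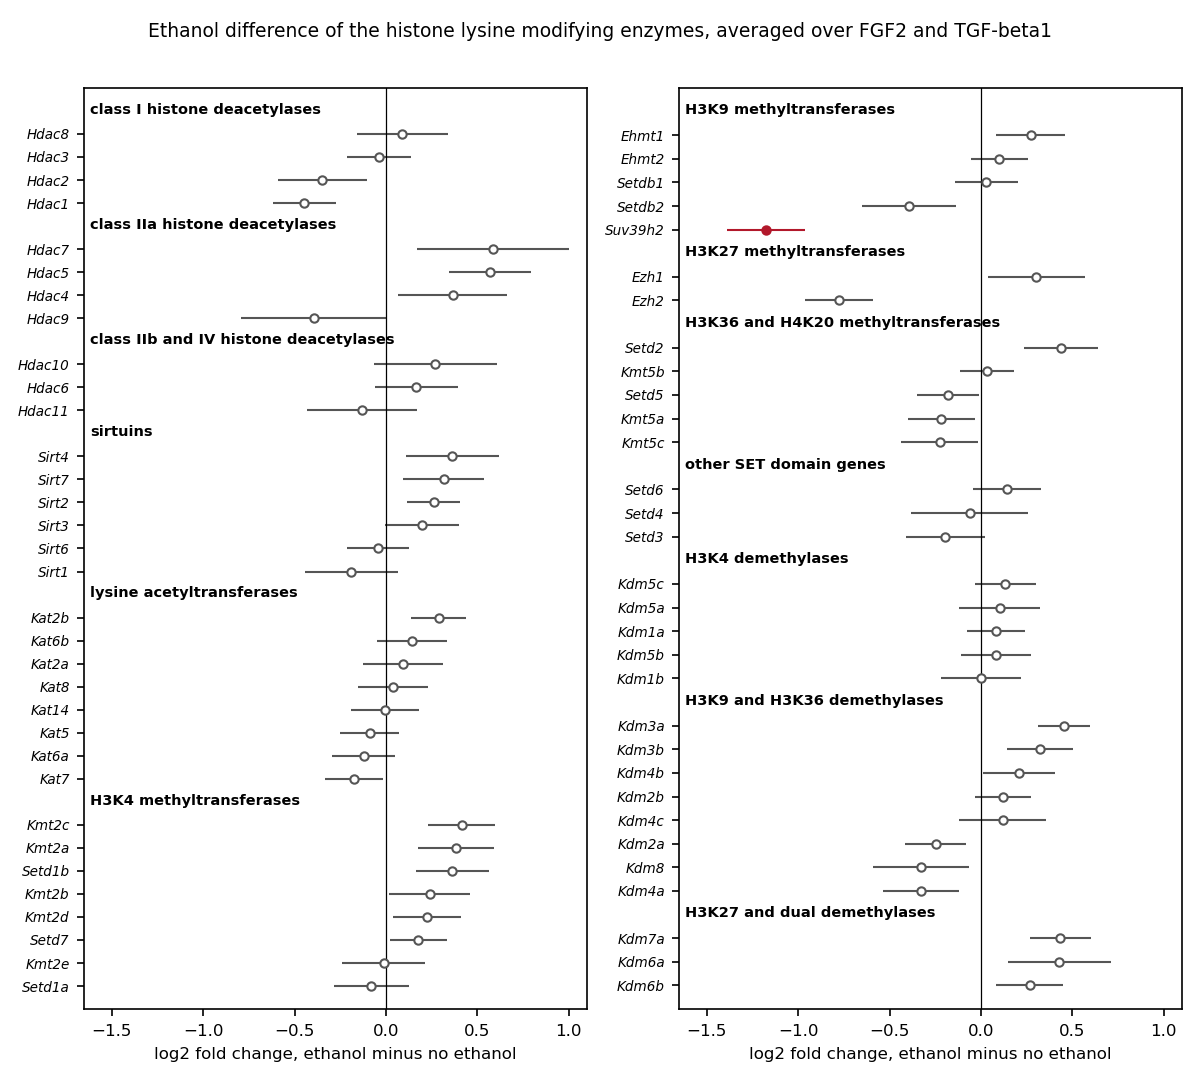
Log2 fold change of each of the 64 members, ethanol minus no ethanol averaged over FGF2 and TGF-beta1 (x axis), by enzyme class; bars are 1 SE from limma and the filled red point is past an adjusted p of 0.05. Suv39h2 stands lowest at -1.17 and Ezh2 next at -0.78, and 60 of the 64 points lie between -0.5 and 0.5.

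Suv39h2, a methyltransferase that trimethylates H3K9 in the silent chromatin around centromeres, lies on chromosome 2 at 3455815 to 3474986 (GRCm38.p6). Its signal was 230 and 268 in Ethanol and TGF-beta1 compared with 615 and 394 in TGF-beta1. In Ethanol and FGF2 it was 164 and 157 against 459 and 481 in FGF2. All 4 ethanol arrays were below all 4 arrays without ethanol, and the lowest pair was Ethanol and FGF2. Averaged over the growth factors the log2 fold change was -1.17 ± 0.21 (SE, adjusted p = 0.0243, limma). Within TGF-beta1 it was -0.92 ± 0.30 (adjusted p = 0.318) and within FGF2 -1.42 ± 0.30 (adjusted p = 0.129), neither past the threshold. The call rests on the full set of arrays: without both ethanol arrays numbered 1 the difference was -1.14 with an adjusted p of 0.204, and leaving out any single array other than TGF-beta1 replicate 2 also lost the call, with adjusted p from 0.0637 to 0.157 and differences from -1.22 to -1.02 (limma). A second probe set above the filter was also lower with ethanol, by a log2 difference of -0.73, and with the mean of all 3 probe sets the value was -0.86 (adjusted p = 0.168).

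Ezh2, the catalytic subunit of the Polycomb complex PRC2 that methylates H3K27, lies on chromosome 6 at 47530274 to 47595270. Its signal was 1513 and 1541 in Ethanol and TGF-beta1 compared with 3230 and 3272 in TGF-beta1. In Ethanol and FGF2 it was 1513 and 1693 against 2859 and 1745 in FGF2. The groups did not overlap, but the second FGF2 array stood close to the ethanol arrays. The average log2 fold change was -0.78 ± 0.18 (adjusted p = 0.0855), with -1.08 ± 0.26 in TGF-beta1 (adjusted p = 0.121) and -0.48 ± 0.26 in FGF2 (adjusted p = 0.676). Without that FGF2 array it was -0.95 (adjusted p = 0.0272), past the threshold, and without both ethanol arrays numbered 1 it was -0.73 (adjusted p = 0.351). Ezh1, the other catalytic subunit, which predominates in cells that no longer divide, had a signal of 122 and 102 in Ethanol and TGF-beta1 compared with 110 and 153 in TGF-beta1, and of 219 and 178 in Ethanol and FGF2 against 137 and 78.8 in FGF2. Its arrays overlapped and the average difference was 0.30 ± 0.27 (adjusted p = 0.781).

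**Figure D2:**
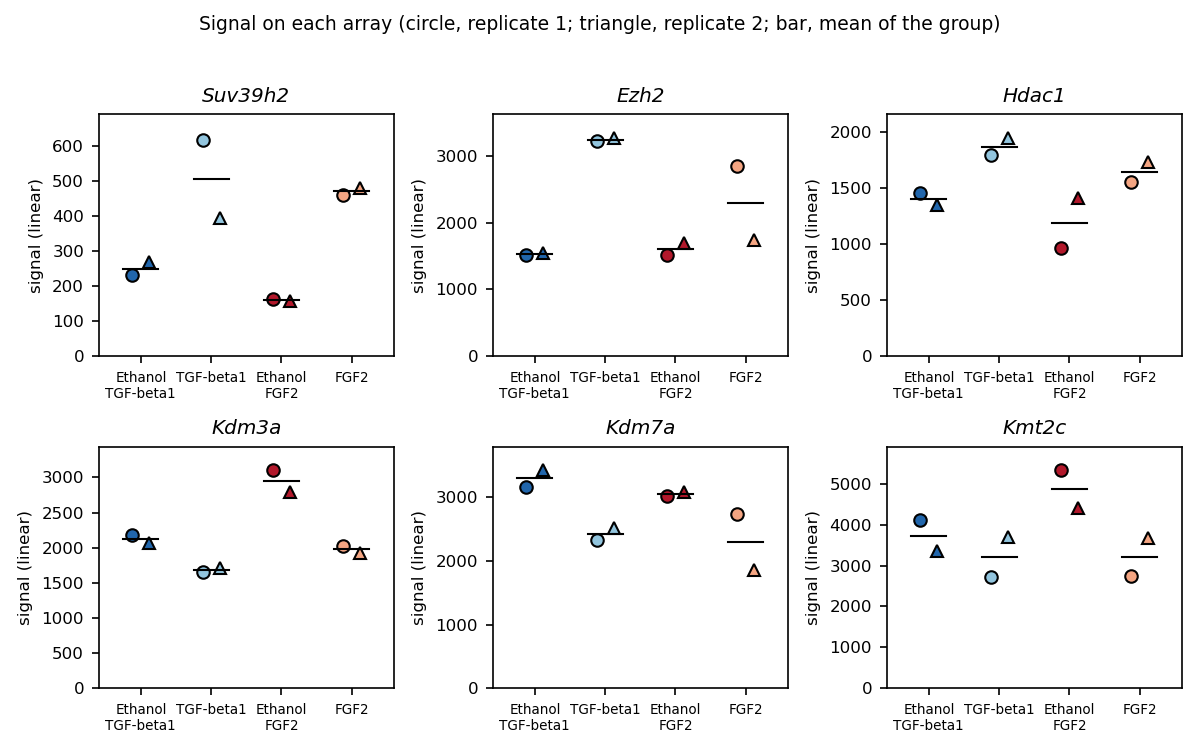
Signal (linear scale, y axis from 0) of 6 members on each array; circles are replicate 1, triangles replicate 2 and bars the mean of the group of 2. For Suv39h2, Ezh2 and Hdac1 every ethanol array lies below every array without ethanol, for Kdm3a and Kdm7a every ethanol array lies above, and for Kmt2c the groups overlap.

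The 250 bases before the start that the RefSeq promoter table gives for each of these genes are shown since they had the lowest ethanol differences. For Ezh2 that start lies inside the gene's outer bound, so most of its window falls within the gene as placed above. The letters come from RefSeq (GRCm38.p6), both read from the minus strand and printed 5′ to 3′, and capitals mark the motifs found. The window of Suv39h2 is chr2:3474987-3475236 and that of Ezh2 is chr6:47595031-47595280.
Suv39h2: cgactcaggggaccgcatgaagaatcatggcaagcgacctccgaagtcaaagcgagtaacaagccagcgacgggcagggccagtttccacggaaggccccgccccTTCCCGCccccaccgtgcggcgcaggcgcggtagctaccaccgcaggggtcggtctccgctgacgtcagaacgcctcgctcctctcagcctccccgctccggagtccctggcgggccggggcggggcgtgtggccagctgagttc
Ezh2: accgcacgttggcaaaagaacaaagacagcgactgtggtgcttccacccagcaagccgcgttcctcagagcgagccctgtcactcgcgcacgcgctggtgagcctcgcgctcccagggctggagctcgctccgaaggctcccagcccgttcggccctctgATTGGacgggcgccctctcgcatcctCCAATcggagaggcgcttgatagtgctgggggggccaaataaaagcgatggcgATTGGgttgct
Both strands were searched for a core of the E2F motif (written as TTCCCGC, as well as TTGGCGC, as well as TTGCCGC, as well as TTCGCGC), for the cell cycle homology region TTTGAA and for CCAAT. Suv39h2 had 1 E2F core, starting 145 bases before that start, and Ezh2 had 3 CCAAT, written ATTGG where it lies on the opposite strand. Of the 67 members, 55 had an entry, with 76 windows among them. The E2F core was in 8 of these windows, 10.5%, against 7.89% of all 32851 windows of that length. CCAAT was in 31, 40.8%, against 33.8%, and TTTGAA in 9, 11.8%, against 15.99%. A match describes letters and is not evidence of binding.

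Over the 5 H3K9 methyltransferases tested, Suv39h2 included, the median difference was 0.03. Ehmt1, which forms a dimer with Ehmt2 that adds 1 or 2 methyl groups to H3K9, had a signal of 541 and 505 in Ethanol and TGF-beta1 compared with 453 and 479 in TGF-beta1, and of 501 and 631 in Ethanol and FGF2 against 492 and 366 in FGF2. The ethanol arrays were all above the others by a narrow margin, and the difference of 0.27 ± 0.19 did not pass (adjusted p = 0.682). Ehmt2, the brightest probe set of the class, differed by 0.10 ± 0.16. Setdb1, which silences retroelements, had signals of 455 to 574 on the ethanol arrays and 460 to 545 on the others. This was the narrowest span of any member on the probe sets used. The 3 Setdb1 probe sets above the filter differed with ethanol by -0.18 to 0.74. Setdb2 had 122 and 146 in Ethanol and TGF-beta1 compared with 184 and 177 in TGF-beta1, and 201 and 137 in Ethanol and FGF2 against 174 and 299 in FGF2. Its groups overlapped, with a difference of -0.40 ± 0.26 (adjusted p = 0.656).

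Of the class I deacetylases, Hdac1 and Hdac2 are catalytic subunits of the Sin3, NuRD and CoREST complexes and Hdac3 of the NCoR complex. Of the 4 members, 3 had differences below 0 (median -0.19). Hdac1 had a signal of 1455 and 1347 in Ethanol and TGF-beta1 compared with 1793 and 1950 in TGF-beta1, and of 962 and 1416 in Ethanol and FGF2 against 1552 and 1737 in FGF2. Every ethanol array was below every other array, with a difference of -0.45 ± 0.17 (adjusted p = 0.377), and of -0.34 (adjusted p = 0.553) without both ethanol arrays numbered 1. Hdac2, its close relative and partner, had 4345 and 4445 in Ethanol and TGF-beta1 compared with 4683 and 5204 in TGF-beta1, and 2183 and 4930 in Ethanol and FGF2 against 5176 and 4344 in FGF2. On this probe set a single array, Ethanol and FGF2 replicate 1, held the low value. Its difference of -0.35 ± 0.24 (adjusted p = 0.689) became -0.05 without both ethanol arrays numbered 1. Another Hdac2 probe set above the filter read 3615 to 4124 on the ethanol arrays and 4288 to 4854 on the others. There every ethanol array was below every other array, with a difference of -0.22. The remaining, dimmer Hdac2 probe set differed by 0.02. Hdac3 and Hdac8 differed by -0.04 and 0.09.

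The class IIa deacetylases, which bind MEF2 factors and shuttle between nucleus and cytoplasm, gave 3 of 4 differences above 0 (median 0.47), with wide errors. Hdac5 had a signal of 358 and 500 in Ethanol and TGF-beta1 compared with 361 and 375 in TGF-beta1, and of 670 and 437 in Ethanol and FGF2 against 312 and 232 in FGF2. The separation was in FGF2, and the average difference was 0.57 ± 0.22 (adjusted p = 0.39). Without both ethanol arrays numbered 1 the Hdac5 differences were 0.65 in FGF2 and 0.42 in TGF-beta1. Hdac7 had the highest difference of all members, 0.59 ± 0.42, from 1 array: Ethanol and FGF2 replicate 1 read 1206 and the other 7 arrays 222 to 439. Hdac4, the brightest of the class, differed by 0.37 ± 0.30 and Hdac9 by -0.40 ± 0.40. Of class IIb and IV, Hdac6, which deacetylates tubulin in the cytoplasm, differed by 0.17 ± 0.23, Hdac10 by 0.27 ± 0.34 and Hdac11 by -0.13 ± 0.30.

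The sirtuins are deacetylases that consume NAD, a cofactor also used when ethanol is oxidised. Of the 6 tested, 4 had differences above 0 and none passed. Sirt2, the brightest probe set among them, had a signal of 2312 and 2752 in Ethanol and TGF-beta1 compared with 2335 and 2613 in TGF-beta1, which overlapped. In Ethanol and FGF2 it had 2559 and 2513 against 1810 and 1781 in FGF2, which did not. The differences were 0.03 ± 0.21 and 0.49 ± 0.21. Sirt1, a nuclear deacetylase, had 1236 and 829 in Ethanol and TGF-beta1 compared with 648 and 715 in TGF-beta1, and 344 and 722 in Ethanol and FGF2 against 1077 and 885 in FGF2. Ethanol arrays were higher in TGF-beta1 and lower in FGF2, with differences of 0.56 ± 0.36 and -0.93 ± 0.36. Without the ethanol array numbered 1 in each growth factor these were 0.27 ± 0.28 and -0.42 ± 0.28. Sirt6 varied little, from 621 to 777 on the ethanol arrays and 660 to 816 on the others, and Sirt3, Sirt4 and Sirt7 differed by 0.20 to 0.36.

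The lysine acetyltransferases lay evenly about 0, with 4 of 8 above it, a median of 0.02 and a span of -0.17 for Kat7 to 0.29 for Kat2b. Kat2b (PCAF), a coactivator of the SAGA family, had a signal of 3288 and 3364 in Ethanol and TGF-beta1 compared with 2326 and 2265 in TGF-beta1. In Ethanol and FGF2 it had 2669 and 3173 against 3131 and 2533 in FGF2. The separation was in TGF-beta1, where the difference was 0.53 ± 0.21 (adjusted p = 0.486), and the FGF2 arrays overlapped. Without both ethanol arrays numbered 1 the Kat2b differences were 0.55 in TGF-beta1 and 0.17 in FGF2. Averaged over all 3 of its probe sets the ethanol difference was -0.07, but the other 2 were below the filter. Kat6a, the brightest of the class, differed by -0.12 ± 0.17, and Kat5 (Tip60), of the NuA4 complex, by -0.09 ± 0.16.

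Of the 8 H3K4 methyltransferases, 6 had differences above 0 with ethanol (median 0.23) and none passed. Kmt2c (MLL3), which works at enhancers, had a signal of 4103 and 3352 in Ethanol and TGF-beta1 compared with 2724 and 3694 in TGF-beta1, and of 5335 and 4400 in Ethanol and FGF2 against 2747 and 3667 in FGF2. The groups overlapped in TGF-beta1 and did not in FGF2, and the average difference was 0.42 ± 0.18 (adjusted p = 0.46). All 4 of its probe sets were higher with ethanol. Kmt2a (MLL1), Setd1b, Kmt2b and Kmt2d differed by 0.38, 0.36, 0.24 and 0.23, with SE of 0.19 to 0.22. Kmt2e, the brightest of the class, differed by -0.01 ± 0.23 on the probe set used, from 5139 to 9568 on ethanol arrays and 6307 to 9983 on the others. Of its 5 probe sets above the filter, 4 were higher with ethanol and 1 lower, from -0.01 to 0.79.

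Setd2, the enzyme that trimethylates H3K36 behind RNA polymerase, had a signal of 775 and 838 in Ethanol and TGF-beta1 compared with 690 and 803 in TGF-beta1, and of 1254 and 1000 in Ethanol and FGF2 against 504 and 837 in FGF2. With the arrays as labelled, the difference of 0.44 ± 0.20 (adjusted p = 0.495) came mostly from FGF2, at 0.76 ± 0.29 against 0.11 ± 0.29 in TGF-beta1. Without both ethanol arrays numbered 1 the Setd2 differences were 0.60 in FGF2 and 0.17 in TGF-beta1. Kmt5a, Kmt5b and Kmt5c, which methylate H4K20, differed by -0.22, 0.03 and -0.23. Setd5, the brightest of the class, differed by -0.18 ± 0.17. Setd3, an actin histidine methyltransferase, read 756 on Ethanol and FGF2 replicate 1 and 1307 to 1461 on the other arrays.

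Among the demethylases of H3K9 and H3K36, Kdm3a had the largest difference relative to its error. Kdm3a (Jmjd1a), which removes H3K9 mono- and dimethylation, had a signal of 2185 and 2071 in Ethanol and TGF-beta1 compared with 1653 and 1705 in TGF-beta1. In Ethanol and FGF2 it had 3109 and 2797 against 2024 and 1926 in FGF2. All ethanol arrays were above all others, most in FGF2 with the arrays as labelled, and the difference of 0.46 ± 0.14 did not pass (adjusted p = 0.229). Without both ethanol arrays numbered 1 it was 0.40, with 0.50 in FGF2 and 0.30 in TGF-beta1. Kdm2a, an H3K36 demethylase that binds CpG islands, had 680 and 651 in Ethanol and TGF-beta1 compared with 786 and 754 in TGF-beta1, and 682 and 588 in Ethanol and FGF2 against 699 and 873 in FGF2. All ethanol arrays were below the others, but the closest arrays, at 682 and 699, were almost equal. Its difference was -0.25 ± 0.17 (adjusted p = 0.675), and 0.14 with the mean of all 7 probe sets, of which 2 were above the filter. Kdm4a, which acts on H3K9 and H3K36, read 289 to 482 on the ethanol arrays and 423 to 605 on the others, with overlap (-0.33 ± 0.21, adjusted p = 0.643). Kdm2b, the brightest of the class, differed by 0.12 ± 0.15.

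The 3 demethylases of H3K27 and dual specificity were all above 0 (median 0.43). Kdm7a, which removes methyl groups from H3K9 and H3K27, had a signal of 3163 and 3436 in Ethanol and TGF-beta1 compared with 2323 and 2524 in TGF-beta1, and of 3015 and 3086 in Ethanol and FGF2 against 2746 and 1864 in FGF2. Every ethanol array was above every other array, with a difference of 0.43 ± 0.17 (adjusted p = 0.379), and of 0.47 (adjusted p = 0.505) without both ethanol arrays numbered 1. Kdm6b (Jmjd3), the brightest of the class, ran from 12546 to 20174 on ethanol arrays and from 10813 to 15022 on the others, with overlap and a difference of 0.27 ± 0.18. Kdm6a (Utx), an X-linked demethylase of the same mark, differed by 0.86 ± 0.40 in TGF-beta1 and -0.00 ± 0.40 in FGF2. Without both ethanol arrays numbered 1 its differences were 0.68 in TGF-beta1 and 0.61 in FGF2. All 3 of its probe sets above the filter were higher with ethanol averaged over the growth factors, by 0.43 to 0.67. Of the H3K4 demethylases, 5 were tested and differed by 0.00 to 0.13 on the probe sets used. Other probe sets above the filter spread more widely for some of them. The 3 of Kdm5b ran from 0.08 to 0.78, and the 5 of Kdm5a from -0.52 to 0.71, with 4 higher and 1 lower. The 4 of Kdm5c ran from -0.13 to 0.25 and the 2 of Kdm1a from 0.07 to 0.08. Kdm1a (Lsd1), the brightest, had signals of 5439 to 7878 on ethanol arrays and 5333 to 6665 on the others.

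**Figure D3:**
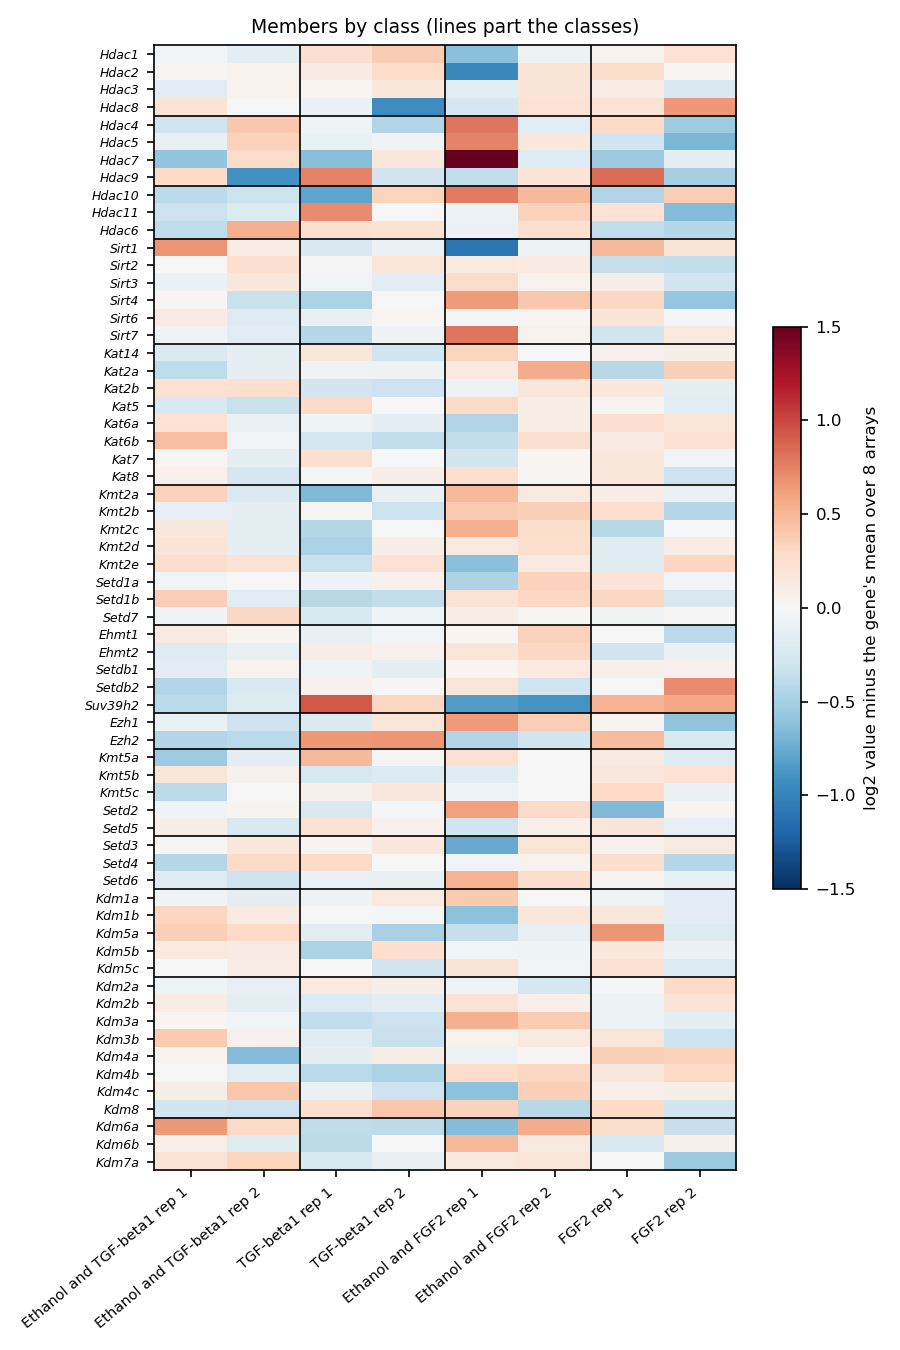
Each of the 64 members on each array (columns), as its log2 value minus its own mean over the 8 arrays, from -1.5 (blue) to 1.5 (red), with classes parted by horizontal lines. Rows are mostly pale, and Ethanol and FGF2 replicate 1 holds the highest or lowest value for 33 members. The row of Suv39h2 splits by ethanol. That of Ezh2 does too, except that FGF2 replicate 2, at -0.23, lies on the blue side with the ethanol arrays.

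How far the members varied among themselves was also read without regard to groups. Over the 8 arrays the range of a member had a median of 0.85 on the log2 scale, against 0.98 for all genes, and 41 of 64 members, 64.1%, spanned under 1, against 51.4% of genes. On the probe sets used, the narrowest were Setdb1 at 0.32 and Sirt6 at 0.38, and the widest Hdac7 at 2.32, Suv39h2 at 1.82, Sirt1 at 1.77 and Hdac9 at 1.74. Ethanol and FGF2 replicate 1, 1 of the arrays that went against their label, was the highest array for 20 members and the lowest for 13. Together these make 51.6% of the members, against 43.1% of all genes. For 4 members in all, the ethanol arrays were all below the others (Ezh2, Hdac1, Kdm2a and Suv39h2; 6.25%, against 4.45% of genes), and for 3 all above (Ehmt1, Kdm3a and Kdm7a; 4.69%, against 2.98% of genes). With only the ethanol arrays numbered 2 these counts were 6, against 10.1% of genes, and 10, against 10.2%.

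Ethanol was then read within each growth factor. In TGF-beta1, 0 of 64 members passed, where 1.19% of genes did. That share rests on single arrays: 130 genes passed with all arrays, and 0 without Ethanol and TGF-beta1 replicate 1 or without either TGF-beta1 array. The lowest adjusted p among the members was that of Ezh2, and 3 members had an unadjusted p under 0.05 (Ezh2 and Suv39h2 lower, Kat2b higher), against 9.48% of genes. In FGF2, 0 members and 0% of genes passed, and 76 genes but no member passed without FGF2 replicate 2. There, 7 members had an unadjusted p under 0.05 (Sirt1 and Suv39h2 lower, Hdac5, Kdm3a, Kmt2c, Setd2 and Sirt2 higher), against 8.3% of genes. The arrays of Ethanol and TGF-beta1 were below those of TGF-beta1 for 14 members, against 25.7% of genes, and above for 18, against 22.2%. Those of Ethanol and FGF2 were below FGF2 for 8, against 12.8% of genes, and above for 19, against 19.3%. The difference between the growth factors in their ethanol response was past the threshold for 0 members and 0% of genes (smallest adjusted p among members 0.831), and its unadjusted p was under 0.05 for Kdm5a and Sirt1, against 4.43% of genes. For Ehmt2, Kat5, Kmt5b, Setd6 and Sirt1, 5 of 64 members or 7.81%, the ethanol arrays lay on opposite sides of their controls in the 2 growth factors without overlap, against 5.25% of genes.

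**Figure D4:**
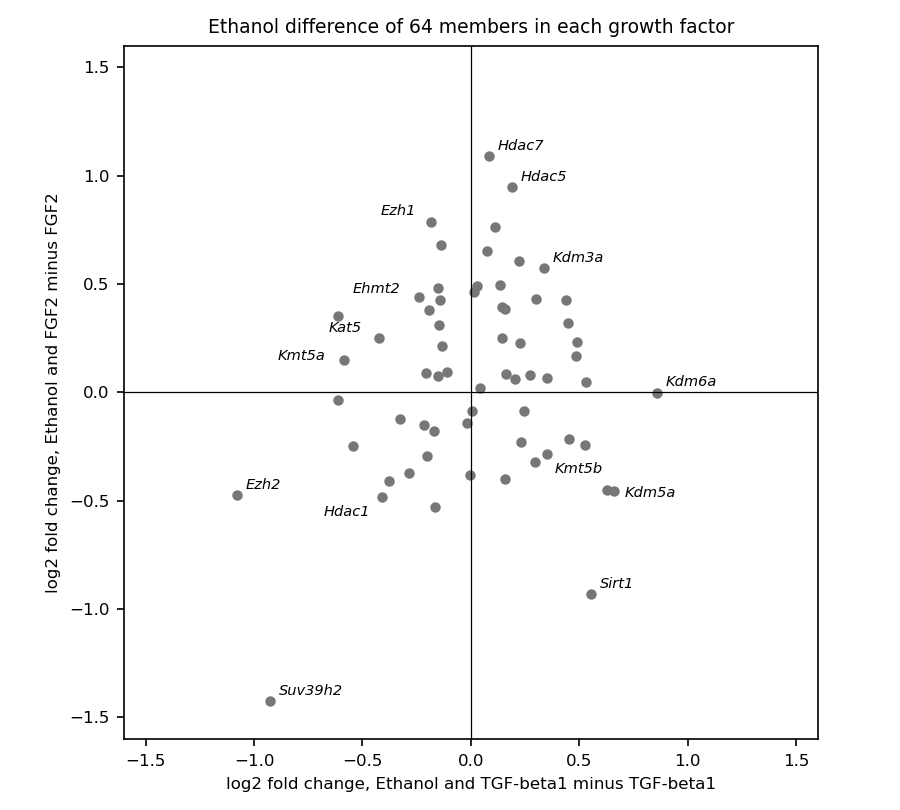
Log2 fold change of each of the 64 members with ethanol in TGF-beta1 (x axis) and in FGF2 (y axis), 1 point a gene. Suv39h2 and Ezh2 lie farthest into the lower left, Sirt1 lies at 0.56 and -0.93 in the lower right, and most other points lie near the centre.

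TGF-beta1 was set against FGF2 on the arrays without ethanol, and 0 of 64 members passed, as did 0% of genes. The unadjusted p was under 0.05 for Hdac8 and Kdm4b, against 4.97% of genes. The members' median was -0.07 against 0.02 for all genes, and 25 lay above 0 and 39 below. Ezh2 had a signal of 3230 and 3272 in TGF-beta1 against 2859 and 1745 in FGF2, a difference of 0.54 ± 0.26. Sirt2 had 2335 and 2613 in TGF-beta1 against 1810 and 1781 in FGF2 (0.46 ± 0.21), and Hdac6 had 829 and 824 against 536 and 512 (0.63 ± 0.32). For these members both TGF-beta1 arrays were the higher, as they were for 6 members in all, against 20.4% of genes. Hdac5, Hdac11 and Ehmt2 differed by 0.42, 0.57 and 0.28.

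On the lower side, both TGF-beta1 arrays were below both FGF2 arrays for 15 members, against 15.8% of genes. Hdac8, an X-linked deacetylase that also acts on cohesin, had 430 and 227 in TGF-beta1 against 531 and 734 in FGF2, a difference of -0.94 ± 0.35. Kdm4b, an H3K9 demethylase, had 188 and 179 in TGF-beta1 against 289 and 320 in FGF2 (-0.66 ± 0.28). Kdm5a, an H3K4 demethylase, had 711 and 568 in TGF-beta1 against 1291 and 693 in FGF2, with overlap (-0.56 ± 0.31). Kat6b, Setd1b and Kmt5b differed by -0.49, -0.42 and -0.42. On the probe sets used, all 8 H3K4 methyltransferases were at or below 0 (median -0.13), down to Setd1b, and none passed. Of all genes, 52.5% lay above 0. Further probe sets of this class above the filter went both ways, from -0.57 to 0.23. The adjusted p of the members named here lay between 0.98 and 0.982 (limma). With ethanol present, TGF-beta1 minus FGF2 also passed for 0 members and 0% of genes, with Kdm3a and Setd6 lower and Sirt1 higher at an unadjusted p under 0.05, against 2.64% of genes. Without both ethanol arrays numbered 1, 0 members and 2 genes passed, and the differences were -0.43 ± 0.26 for Kdm3a, -0.58 ± 0.38 for Setd6 and 0.19 ± 0.32 for Sirt1.

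The members work in complexes with other genes. Outside the name rule, 63 genes, here called partners, were listed: complex partners, related enzymes, H3K9 methyl readers and histone chaperones of DNA replication. Of these, 58 were on the table and 55 tested. With ethanol, averaged over the growth factors, 3 fell and 0 rose (limma), or 5.45% of those tested, against 1.8% of genes that fell, and the median was -0.03, against 0.03 for all genes. The list was chosen with earlier results of these data known, so its share cannot be read as an excess over all genes. Of the 3 that fell, 2 were among the 4 replication chaperones tested. Asf1b, a chaperone that hands new histones to replicating DNA, had a signal of 169 and 230 in Ethanol and TGF-beta1 compared with 1278 and 1187 in TGF-beta1. In Ethanol and FGF2 it had 138 and 161 against 795 and 466 in FGF2, and its difference was -2.19 ± 0.23 (adjusted p = 0.00247). Chaf1b, a subunit of the CAF-1 chaperone, differed by -1.70 ± 0.29 (adjusted p = 0.0192). Hat1, which acetylates newly made histone H4, had 1449 and 1625 in Ethanol and TGF-beta1 compared with 3351 and 3352 in TGF-beta1, and 1676 and 1286 in Ethanol and FGF2 against 2691 and 2419 in FGF2 (-0.95 ± 0.16, adjusted p = 0.0153). Without both ethanol arrays numbered 1 none of the 3 passed, at -2.04 for Asf1b (adjusted p = 0.0683), -1.90 for Chaf1b (adjusted p = 0.0946) and -1.005 for Hat1 (adjusted p = 0.0856). Of the 9 PRC2 partners of Ezh1 and Ezh2, 7 were tested and 0 passed, with Eed at -0.09 and Suz12 at -0.31 ± 0.14 (adjusted p = 0.487). Of the H3K9 methyl readers Cbx1, Cbx3 and Cbx5, 0 of 3 passed, with a median of -0.14. The list of SET1/MLL core genes and Kansl1 had 0 of 7 past the threshold and the deacetylase complex partners 0 of 12.

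Markers of cell division moved the same way as Suv39h2 and Ezh2. The 9 markers on the table, all above the filter, had summed signals of 1649 to 3791 on ethanol arrays and 10763 to 32970 on the others. On the log2 scale, against the mean of the arrays without ethanol, the mean of the markers was -3.22 and -2.44 in Ethanol and TGF-beta1 compared with 0.50 and 0.48 in TGF-beta1, and -3.65 and -3.19 in Ethanol and FGF2 against 0.13 and -1.11 in FGF2. On the same scale Ezh2 was -0.82 and -0.80 in Ethanol and TGF-beta1 compared with 0.26 and 0.28 in TGF-beta1, and -0.82 and -0.66 in Ethanol and FGF2 against 0.08 and -0.62 in FGF2. The second FGF2 array, lowest of the arrays without ethanol for the markers, was lowest for Ezh2 too, while Suv39h2 was at -0.00 there. Neuron markers had summed signals of 10084 to 15522 on ethanol arrays and 5648 to 12685 on the others, with overlap. Among them Celf4, a neuronal RNA-binding protein, rose by 2.76 ± 0.44 with ethanol (adjusted p = 0.0130, limma), while Tubb3, at 1.5996 (adjusted p = 0.0938), and Dcx, at 1.56 (adjusted p = 0.0811), did not pass. Celf4 had a signal of 846 and 447 in Ethanol and TGF-beta1 compared with 14.9 and 69.9 in TGF-beta1, and of 483 and 832 in Ethanol and FGF2 against 65.6 and 241 in FGF2. The part of cell division, of neuron or astrocyte content or of RNA quality in the values of the members was not tested.

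**Figure D5:**
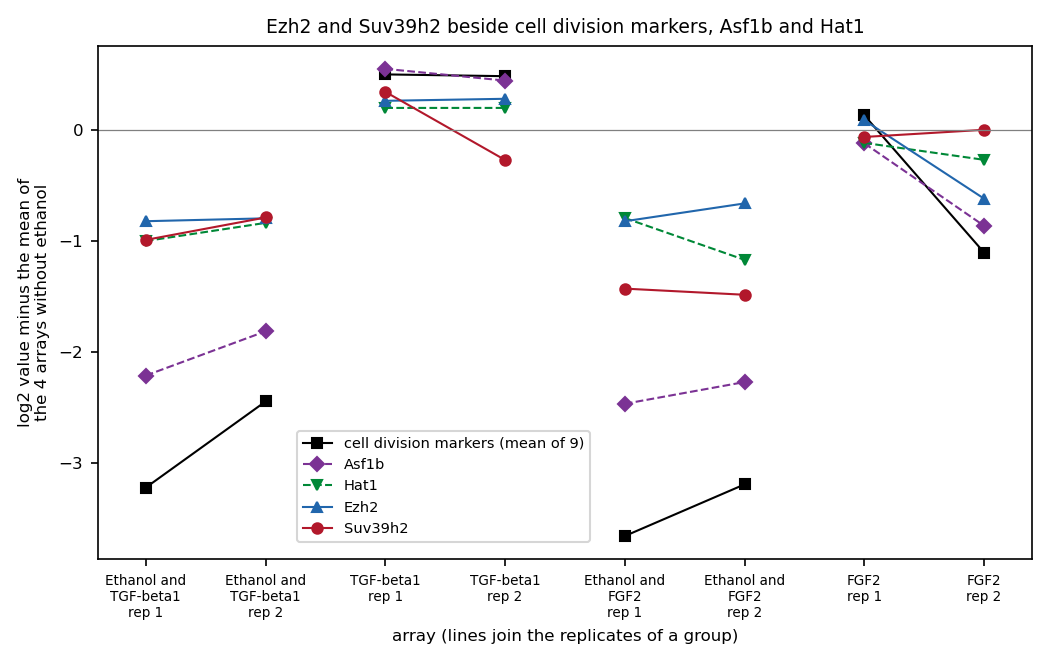
Log2 value on each array minus the mean of the 4 arrays without ethanol, for Suv39h2, Ezh2, for the partners Asf1b and Hat1, and for the mean of 9 cell division markers; lines join the replicates of a group. All 5 lie below 0 on every ethanol array, the markers down to -3.65 and Ezh2 to -0.82.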

How the data were processed

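The authors made 1 signal intensity per probe set and array with MAS5 and GCOS, per the labels and the submitters' processing notes, and the deposited intensity values are linear, scaled to a 2% trimmed mean of 500, with no detection calls. Depth does not apply to arrays, and 2 arrays a group limit the precision. Members and lists were chosen with earlier results of these data known. Left out were 932 probe sets naming several genes and 9160 naming none. The scale was log2(signal + 23.66), where 23.66 is the 25th percentile of the signals. The filter kept 10916 genes whose mean reached the 40th percentile (6.402). limma 3.58.1 in R 4.3.3 fitted 4 group means over 8 arrays with trended eBayes (4 residual and 4.929 prior degrees of freedom), and Benjamini-Hochberg adjustment was made over all genes in each of 6 comparisons. The fit was tested on simulated data. Positions and promoters came from RefSeq tables of GRCm38.p6.

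Named genes were members past the threshold, the 6 members each way with the largest moderated t in the ethanol average and in TGF-beta1 minus FGF2 without ethanol, the brightest member of each class, and partners past the threshold. Other members named (Ehmt1, Ezh1, Hdac7, Sirt1 and those given by value within a class) were chosen after their values were seen. Alternatives were the constant, the filter, quantile normalization, the mean of all probe sets, eBayes without a trend, a replicate block, leaving out each array, and leaving out both ethanol arrays numbered 1.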

Additional observations from a re-analysis of the deposited data

Results flagged for a closer look

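For 5 of 64 members (7.81%, against 5.25% of genes) both ethanol arrays lay on one side of their controls in TGF-beta1 and both on the opposite side in FGF2. The ethanol difference in TGF-beta1 minus that in FGF2, on the log2 scale, was 1.49 ± 0.51 (SE) for Sirt1, 0.64 ± 0.30 for Kmt5b, -0.68 ± 0.31 for Ehmt2, -0.67 ± 0.32 for Kat5 and -0.57 ± 0.37 for Setd6. The interaction test, limma over all genes, passed for none of them (adjusted p = 0.831 each). Sirt1 and Kmt5b were higher with ethanol in TGF-beta1 and lower in FGF2, and Ehmt2, Kat5 and Setd6 the other way round. In each growth factor 1 of the ethanol arrays is the one whose Fn1 signal went against its label. Without both of these arrays the values were 0.70 ± 0.39 for Sirt1, 0.49 ± 0.33 for Kmt5b, -0.71 ± 0.37 for Ehmt2, -0.62 ± 0.37 for Kat5 and -0.50 ± 0.47 for Setd6, again with none past the threshold.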

How the results depend on the processing

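The member count past the threshold was 0 under every alternative in the 5 comparisons other than the ethanol average. In the ethanol average it was 1, and 0 with the filter at the 60th percentile, where Suv39h2 was not tested, with the mean of all probe sets, with the replicate block (Suv39h2 adjusted p = 0.053) and without both ethanol arrays numbered 1. Leaving out 1 array gave 0 to 1: 0 without either Ethanol and FGF2 array, FGF2 replicate 1, either Ethanol and TGF-beta1 array or TGF-beta1 replicate 1, Ezh2 alone without FGF2 replicate 2, and Suv39h2 without TGF-beta1 replicate 2. Suv39h2 stayed lower in all 16 alternatives that tested it, from -1.33 to -0.86, and past the threshold in 6 (adjusted p from 0.0224 to 0.204, limma). The replicate block changed no other call of a member. The labels do not say whether a replicate number marks a shared culture or day. Correlations of deviations between same-numbered arrays ran from -0.44, between the 2 ethanol groups, to 0.47, between FGF2 and TGF-beta1. Median signals in FGF2 and TGF-beta1 were 50.7 and 50.6 on replicate 1, against 86.5 and 80.7 on replicate 2.

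Some members changed sign in the ethanol average. With the mean of all probe sets the values were 0.14 for Kdm2a, -0.066 for Kat2b, 0.30 for Kat6a, -0.033 for Kdm2b, 0.16 for Kmt2e, 0.021 for Setd5 and 0.094 for Setd3. With arrays left out, 1 at a time or both ethanol arrays numbered 1, Hdac6 ran from -0.063 to 0.48, Kat6a from -0.26 to 0.012, Kdm1a from -0.034 to 0.18, Kmt2e from -0.20 to 0.18 and Setd3 from -0.43 to 0.074. The cause was not tested. Of members with several probe sets above the filter, 34 of 53 further probe sets had the direction of the one used and 19 the opposite.

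The background moved more: 217 genes passed in the ethanol average, 92 without TGF-beta1 replicate 1, 129 without Ethanol and TGF-beta1 replicate 1, 119 at the 60th percentile filter, and 0 without both ethanol arrays numbered 1 (limma, 1141 genes at an unadjusted p under 0.05). In TGF-beta1, 130 genes passed, 75 at the 60th percentile filter, 85 with the mean of all probe sets, 78 with no variance trend, 66 without Ethanol and TGF-beta1 replicate 2, and 0 with the replicate block, without Ethanol and TGF-beta1 replicate 1, without either TGF-beta1 array or without both ethanol arrays numbered 1. In FGF2, 0 genes passed, 76 without FGF2 replicate 2, 53 with quantile normalization, 29 with no filter, 15 without either Ethanol and TGF-beta1 array, 3 at the 60th percentile filter and 1 without FGF2 replicate 1. Without both ethanol arrays numbered 1, TGF-beta1 minus FGF2 passed for 5 genes without ethanol and 2 with it.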
